A study of Mus musculus with 7 samples.

Results

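The genes of 10 transcription factors that set up and keep the identity of keratinocytes, the cells of the epidermis, were read in 3 lists of H3K27-Ac peaks: *Trp63*, *Sox2*, *Grhl1*, *Grhl2*, *Grhl3*, *Klf4*, *Klf5*, *Ovol1*, *Tfap2a* and *Tfap2c*. The members were chosen by name, out of 21938 protein-coding genes in all, and the rule uses no measured value. Earlier results of these data were known when the members and the gene lists below were chosen. H3K27-Ac is an acetylated histone found at active promoters and enhancers, and ChIP-seq sequences the DNA that an antibody against it brings down. *Klf4*, *Klf5* and *Tfap2a* carried the mark at a promoter in all 3 clones, *Grhl1* in clone 2 only, and the other 6 genes, *Trp63* and *Sox2* among them, at no transcription start in any clone.

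Each list comes from a tumour cell clone picked from soft agar, and each clone from a different skin tumour, a trichoblastic carcinoma of the hair follicle, of a *Cdkn2ab*-/- mouse from an FVB/129P2 backcross. All 3 clones lack p15Ink4b, p16Ink4a and p19Arf, the last deleted by an *Act*-Cre transgene expressed in the germline, so that there is 1 condition and no control genotype, and a clone stands for 1 picked colony and not for its tumour. There were 4 H3K27-Ac libraries, 1 each of clones 1 and 2 and 2 of clone 3 that were merged into 1 list. A further 3 libraries, made with IgG as a control, come from clone 1 and from clone 3. An age is not given in the sources used here.

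The lists hold 29182, 49587 and 29277 peaks in clones 1, 2 and 3. Each peak has a fold enrichment, the ChIP pileup over the local control background at its summit, and from this and its p-value the whole number of ChIP reads stacked at the summit could be solved for 100% of peaks. The listed peaks with the fewest reads rest on 13, 12 and 25 reads, and a site over a higher local background needs more reads to be listed. A site without a peak may therefore still carry acetylated fragments, and over a high background more than these numbers. No IgG library is labelled for clone 2, and the control behind its fold enrichments is not given in the sources used here. The scale of fold enrichment differs between the lists, so that a gene's standing was taken within each list, and means over the lists serve only to order the genes named from lists. In addition, the part of each list's depth and background in whether a site is listed was not tested. Of 12 keratinocyte markers 4, 4 and 3 had a peak within 1 kb of a start in clones 1, 2 and 3, where 49.8%, 56.9% and 48.1% of all genes had one. *Krt10*, *Itga6* and *Perp* had one in all clones, *Krt14* in clone 1 only, with 42 reads at the summit, *Krt15* in clone 2 only, and the other 7, among them the defining keratin gene *Krt5*, in none. Of 12 fibroblast or mesenchymal markers 10, 10 and 8 had one. *Vim*, *Fn1*, *Zeb1*, *Twist1*, *Twist2*, *Prrx1* and *Pdgfrb* had one in all clones, *Col1a1*, *Col1a2* and *Pdgfra* in clones 1 and 2, *Col3a1* in clone 3 only and *Thy1* in none. Of 4 endothelial markers 0, 0 and 1, of 4 blood markers 0, 1 and 0, and of 4 melanocyte markers none had a promoter peak. The labels call the cells only by strain and genotype. The part of another cell identity in the results below was not tested.

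The factors act at different steps of the epidermal programme. p63, the product of *Trp63*, is needed to form stratified epithelia, and its gene has a long transcript from an upstream promoter (TAp63) and a short transcript from a promoter inside the gene (ΔNp63), of which the short form prevails in basal keratinocytes. AP-2α and AP-2γ, from *Tfap2a* and *Tfap2c*, commit the ectoderm to epidermis, and KLF5 is a factor of dividing basal cells. KLF4 and the grainyhead-like factors GRHL1 to GRHL3 drive the later steps, in which the barrier and the cell junctions are built, and OVOL1 accompanies the exit from division and represses mesenchymal genes. SOX2 is best known from pluripotent cells and in the skin from the dermal papilla and from squamous tumours.

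A promoter peak, meaning a peak that overlaps the 1 kb on either side of a transcript start, was present at 3, 4 and 3 of the 10 genes in clones 1, 2 and 3, or 3.33 ± 0.58 genes (SD, n = 3 clones). Among all protein-coding genes the shares were 49.8%, 56.9% and 48.1%. A peak in all 3 clones was found at 3 of the 10 genes, against 46.5% of all genes, and in no clone at 6 of the 10, against 42.6% of all genes. In each clone the share of the 10 genes with promoter acetylation lay below that of genes at large, and no test of this was made.

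**Figure D1:**
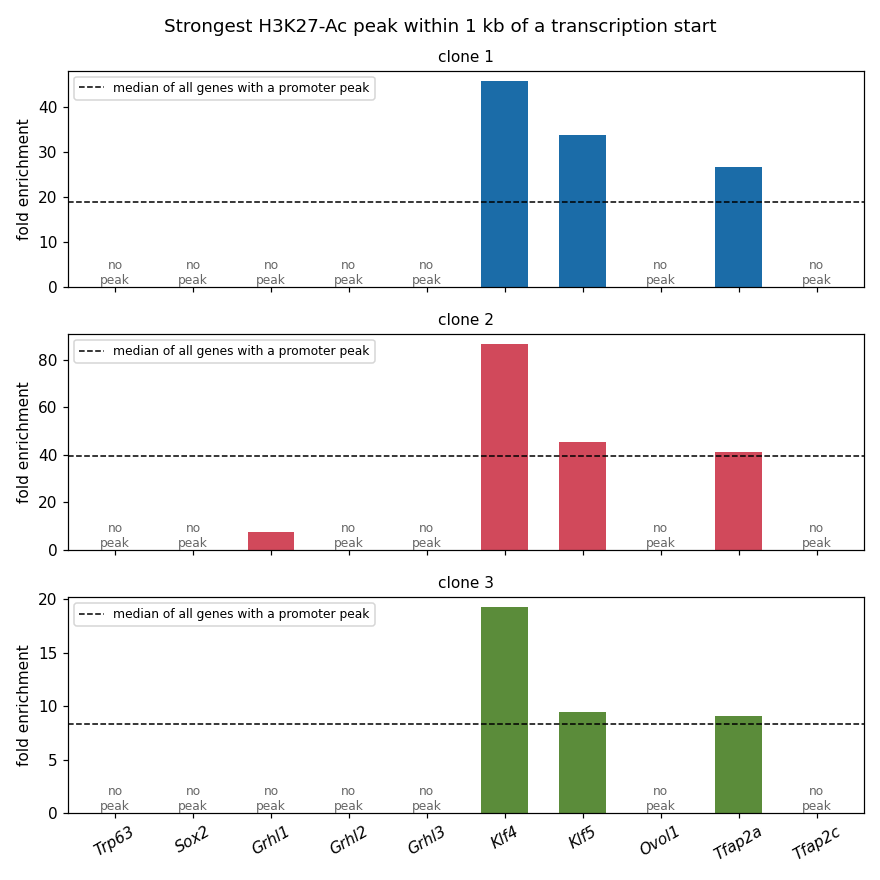
Fold enrichment (y axis, linear, from 0) of the strongest H3K27-Ac peak within 1 kb of a start of each of the 10 genes (x axis), with 1 panel and 1 scale per clone; the dashed line is the median of all genes with a promoter peak in that clone. *Klf4* stands highest in each clone, at 45.8, 86.5 and 19.2, *Klf5* and *Tfap2a* lie above the median line, and *Grhl1* has a bar of 7.70 in clone 2 only.

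*Klf4* (ENSMUSG00000003032.8, chr4:55527143-55532466, minus strand, GRCm38) had the strongest promoter mark of the 10 genes. The 250 bases before its RefSeq start, chr4:55532476-55532725 on the minus strand, lie under the promoter peak of each clone. They are shown with the corresponding bases of *Grhl1* (246 bases, chr12:24572037-24572282, plus strand), which were marked in a single clone, and of *Sox2* (chr3:34649745-34649994, plus strand), which were marked in none. Capitals mark matches, on either strand, to the motifs of the KLF family (CCNCNCCC) and of AP-2 (GCCNNNGGC).
Klf4: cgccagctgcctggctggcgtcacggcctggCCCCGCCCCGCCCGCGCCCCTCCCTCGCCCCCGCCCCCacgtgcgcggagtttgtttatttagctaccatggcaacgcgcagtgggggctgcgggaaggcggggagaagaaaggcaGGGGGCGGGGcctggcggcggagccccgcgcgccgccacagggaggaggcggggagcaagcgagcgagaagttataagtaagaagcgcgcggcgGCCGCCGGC
Grhl1: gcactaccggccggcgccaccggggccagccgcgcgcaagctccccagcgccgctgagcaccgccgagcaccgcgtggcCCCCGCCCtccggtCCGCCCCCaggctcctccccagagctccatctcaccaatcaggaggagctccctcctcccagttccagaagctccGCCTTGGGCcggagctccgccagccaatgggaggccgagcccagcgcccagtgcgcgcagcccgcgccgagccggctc
Sox2: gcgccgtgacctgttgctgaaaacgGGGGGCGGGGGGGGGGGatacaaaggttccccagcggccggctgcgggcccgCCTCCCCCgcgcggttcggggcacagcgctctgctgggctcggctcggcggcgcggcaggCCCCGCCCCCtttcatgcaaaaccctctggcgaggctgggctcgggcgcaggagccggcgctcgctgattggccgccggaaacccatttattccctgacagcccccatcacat

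All 3 stretches are rich in CpG, with 32 CpG in *Klf4*, 27 in *Grhl1* and 27 in *Sox2*, against a median of 6 over the 32851 windows of the RefSeq promoter table. The KLF motif matched at 9 positions in *Klf4*, at 2 in *Grhl1* and at 9 in *Sox2*, several of which overlap each other in *Klf4* and *Sox2*, and 45.9% of all windows hold it at least once. The AP-2 motif matched once in *Klf4* and once in *Grhl1*, and 13.7% of all windows hold it. Motifs of the grainyhead (AACCNGTT), SOX (CATTGTT), OVOL (CCGTTA), AP-1 (TGANTCA) and p53 (CATGNNNNNNCATG) families had no match in any of the 3. By number of positions the unmarked *Sox2* promoter held as many KLF matches as the marked promoter of *Klf4*. These positions are not separate sites. In *Sox2* the matches at bases 26, 28, 32, 33, 34 and 35 lie in a single G-rich run. In *Klf4* those from base 32 to base 62 lie in a single C-rich run. Of the 2813 windows of the table with at least 27 CpG, 78.1% overlapped a peak in all 3 clones and 11.3% in no clone. The table holds 5 of the 10 genes, among them *Grhl3* and *Tfap2a*; *Trp63*, *Grhl2*, *Klf5*, *Ovol1* and *Tfap2c* have no entry. The window of *Tfap2a*, chr13:40734921-40735170, which lies under a peak in clone 2 only, differs from these 3: it holds 10 CpG, above 62.2% of all windows, and no match to any of the 7 motifs.

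The *Klf4* promoter peak was 5200 bp wide in clone 1 with 203 ChIP reads at its summit, 4442 bp with 391 reads in clone 2, and 4417 bp with 155 reads in clone 3. It covered all 3 annotated starts in every clone. Its fold enrichment of 45.8, 86.5 and 19.2 was above that of 95.4%, 96.7% and 97.6% of the genes with a promoter peak in the same list, and its width above that of 99.5%, 99.0% and 99.5% of them. The summit lay at -1029 bp from the nearest start in clone 1, at -398 bp in clone 2 and at -408 bp in clone 3, where a negative distance is upstream. The promoter of this barrier factor was among the broadest and most enriched of each list. Upstream of it, clones 1 and 3 shared a pair of weaker peaks that clone 2 did not list. The nearer of them lay 8.73 kb from the gene in clone 1, with 35 reads and a fold enrichment of 7.45, and 8.67 kb from it in clone 3, with 54 reads and 6.96. The farther peak had 28 reads in clone 1 and 57 in clone 3.

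*Klf5* (ENSMUSG00000005148.8, chr14:99298691-99315036, plus strand) was marked over its first exon in every clone. The strongest promoter peak had 157, 210 and 83 reads at the summit in clones 1, 2 and 3, and its fold enrichment of 33.8, 45.5 and 9.43 lay above 83.8%, 59.3% and 60.7% of the genes with a promoter peak. The 3 summits fell within 56 bp of each other, in the first exon of the transcript from the outer start, at 99298944, 99298938 and 99298994. The peak was 3116 bp wide in clone 1, 1969 bp in clone 2 and 2985 bp in clone 3, and clones 1 and 3 each had a second, narrow peak just upstream with 26 and 34 reads. The gap between the pair left the outer start uncovered in clone 3. Farther into the gene the clones differed. Clone 2 listed 4 body peaks of 17 to 31 reads, at the second and last exons and in the third intron, and clones 1 and 3 listed none. The first of the 4 overlapped sequence that the broad promoter peaks of clones 1 and 3 cover. A distal peak 9.27 kb past the gene end in clone 2 (33 reads) was matched by one 9.13 kb past it in clone 3 (52 reads) and was not listed in clone 1.

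*Tfap2a* (ENSMUSG00000021359.16, chr13:40715302-40738376, minus strand) has 9 annotated starts spread over 9432 bp, and the mark covered much of this stretch. Clones 1, 2 and 3 had 4, 4 and 5 promoter peaks, with 8098, 9463 and 4732 bp under them. In clone 2 a single peak of 5894 bp held 184 reads at its summit and in clone 1 one of 4568 bp held 124, and clone 3 listed 3 narrower peaks over the same stretch with 50, 57 and 44 reads. A separate peak in the first intron of the transcript from the outermost start was present in every clone, with 101, 241 and 73 reads. The outermost start itself lay under no peak in any clone, although clone 2 had a peak of 52 reads just downstream of it. The strongest fold enrichment, 26.8, 40.96 and 9.09, lay above 71.3%, 52.6% and 57.5% of the genes with a promoter peak. The width of the widest peak exceeded that of 99.1%, 99.7% and 85.2% of such genes, a higher standing than that of its enrichment in each clone. A body peak in the third intron of the same transcript, with its summit 5502 and 5572 bp downstream of the nearest start, was shared by clones 1 and 2 with 41 and 89 reads.

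**Figure D2:**
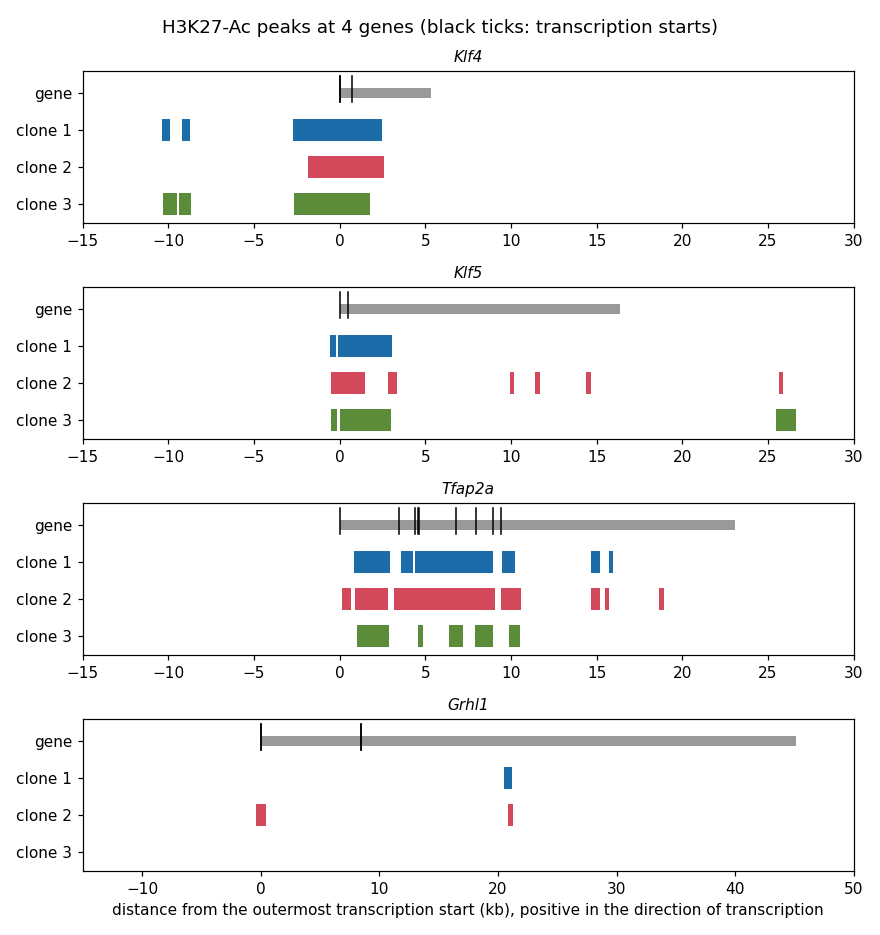
Peaks of each clone (coloured bars, drawn to scale) against the distance from the outermost transcription start in kb (x axis) at *Klf4*, *Klf5*, *Tfap2a* and *Grhl1*; the grey bar is the gene and black ticks are its annotated starts. The *Klf4* promoter peak reaches across the start in all clones with 2 upstream peaks in clones 1 and 3, *Klf5* has body peaks in clone 2 only, and *Grhl1* has a promoter peak in clone 2 only.

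*Grhl1* (ENSMUSG00000020656.16, chr12:24572283-24617391, plus strand), whose product controls desmosomal cadherins, differed between the clones. Clone 2 listed a promoter peak of 909 bp at chr12:24571848-24572756, with 29 reads at its summit and a fold enrichment of 7.70, and clones 1 and 3 listed none. This was a weak promoter peak, above only 7.86% of the genes with a promoter peak in clone 2. A peak in clone 2 and not in the other clones was found at 1 of the 10 genes and at 6.15% of all genes. Of the 1849 promoter peaks of clone 2 with 24 to 34 reads, 15.95% overlapped a peak of clone 1 and 11.2% a peak of clone 3, so that such peaks were mostly listed in clone 2 alone. An intronic peak in the eighth intron of the transcript from the outermost start was shared by clone 1 (19 reads) and clone 2 (42 reads). The peaks around the gene with the most reads lay at the start of a neighbour, *Klf11*, itself a KLF gene, with 270, 351 and 178 reads.

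*Trp63* (ENSMUSG00000022510.14, chr16:25683763-25892102, plus strand) had no peak within 1 kb of its long starts at 25683763 and 25683765, nor of its short start at 25801916, in any clone. The nearest peak to the long start lay 59.0, 68.3 and 39.7 kb away in clones 1, 2 and 3. For the short start, which makes ΔNp63, the nearest peak lay 14.3 kb upstream in clone 1 with 38 reads, 3.11 kb downstream in clone 2 with 28 reads, and 1.97 kb upstream in clone 3 with 30 reads. The last of these comes within a window of 2.5 kb, so that with this window 1 clone had a peak at the short start and none at the long start.

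The body of *Trp63*, a gene of 208 kb, was nevertheless marked, with 6, 10 and 10 peaks in clones 1, 2 and 3, or 8.67 ± 2.31 (SD, n = 3), where the mean over all genes of any length is 0.484, 1.12 and 0.459. Between the long and the short start there were 2, 3 and 6 of these peaks, and downstream of the short start 4, 7 and 4. Merged over the clones they form 13 regions, of which 3 were listed in all clones, 4 in 2 clones and 6 in a single clone. The first shared region, chr16:25785419-25787935, lies in the third intron of the long transcripts, upstream of the short start, and had 38, 18 and 86 reads. The second, chr16:25843618-25845457, lies in the second intron of the short transcripts and had 23, 49 and 59 reads. The third, chr16:25860231-25862787, had 71, 43 and 137 reads, and its summits fell in the same intron in clones 1 and 3 and in exon 3 of the short transcripts in clone 2. By fold enrichment the strongest peak of the first region stood above 62.0%, 22.2% and 84.4% of all peaks in the lists of clones 1, 2 and 3. That of the second stood above 7.24%, 56.8% and 14.8%, and that of the third above 50.4%, 62.1% and 88.0%. The 300 bases around a summit of the first region (clone 1, chr16:25786857-25787156) and of the third (clone 3, chr16:25861525-25861824), on the plus strand, are shown. The window of the third region lies under a peak of every clone. That of the first lies under a peak in clones 1 and 3, and the clone 2 peak, chr16:25787050-25787550, covers only its end. No capitals occur in either window, since none of the 7 motifs above had a match. In the 300 bases around a summit of the second region the KLF motif matched once.
Trp63 first shared region: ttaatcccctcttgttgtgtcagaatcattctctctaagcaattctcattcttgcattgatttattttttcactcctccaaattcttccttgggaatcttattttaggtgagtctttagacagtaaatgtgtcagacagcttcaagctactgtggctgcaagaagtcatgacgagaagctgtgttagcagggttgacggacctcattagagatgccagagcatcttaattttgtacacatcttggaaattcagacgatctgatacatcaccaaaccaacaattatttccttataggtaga
Trp63 last shared region: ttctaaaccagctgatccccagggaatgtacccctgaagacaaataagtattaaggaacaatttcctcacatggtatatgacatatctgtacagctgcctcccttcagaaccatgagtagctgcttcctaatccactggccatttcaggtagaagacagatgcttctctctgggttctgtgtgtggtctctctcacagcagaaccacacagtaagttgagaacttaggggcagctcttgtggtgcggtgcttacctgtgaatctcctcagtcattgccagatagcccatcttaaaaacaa

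Among the 7172 windows of 300 bases on clone 1 summits that lie outside promoters and were shared by all clones, 34.5% hold the KLF motif, 12.2% the AP-2 motif, 9.48% the AP-1 motif, 3.82% the SOX motif, 2.13% the OVOL motif, 2.01% the grainyhead motif and 0.976% the p53 family motif. A match or its absence describes these letters only.

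Clone 3 carried more of the mark around *Trp63* than the other clones. It had 16930 bp under peaks in the gene and the 100 kb on each side, against 6375 bp in clone 1 and 7664 bp in clone 2. This places *Trp63* at percentile 98.2 of all protein-coding genes in clone 3 and at 66.0 and 60.5 in clones 1 and 2. The window grows with the length of the gene and is 408 kb for *Trp63*. Distal peaks numbered 5, 5 and 13, and none of them lay at the start of another gene. Of the 15 distal regions, 6 were listed in clone 3 alone, 2 in clone 2 alone and none in clone 1 alone. A region 98.2, 98.3 and 98.0 kb upstream of the gene was listed in all clones, with 28, 33 and 63 reads. The clones therefore share a few intronic sites and differ in the number of others around them, and with 1 list per clone this difference has no replicate check. The list of clone 3 is also the only list made from 2 libraries, and the part of this in the difference was not tested.

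**Figure D3:**
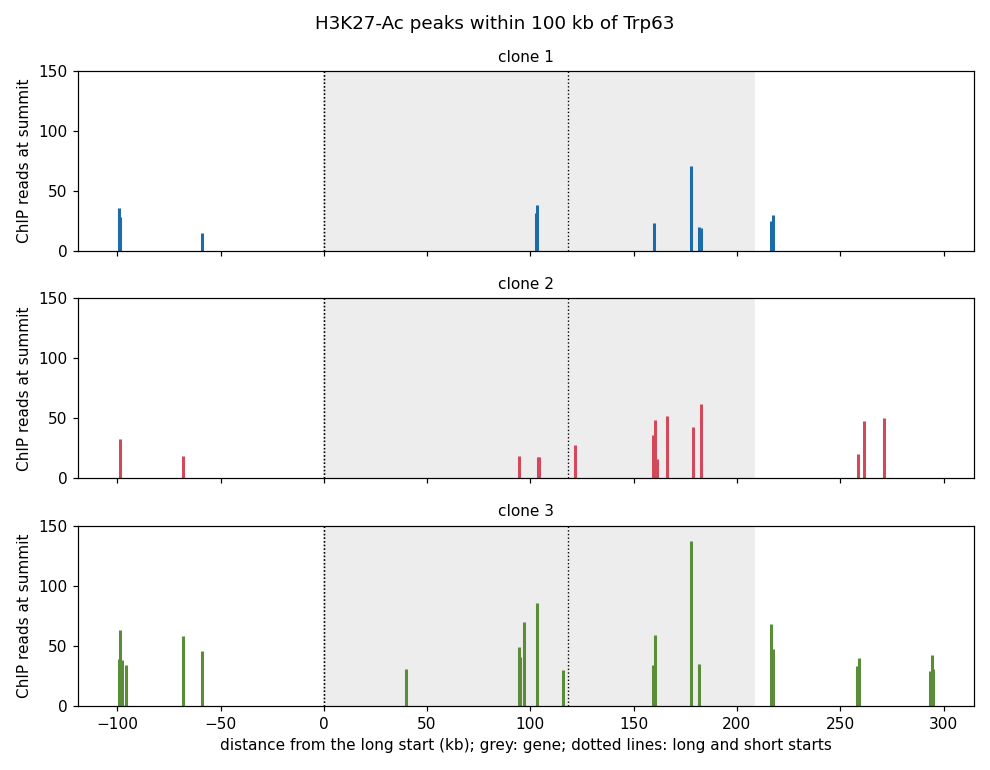
ChIP reads at the summit (y axis, not scaled between clones) of each peak within 100 kb of *Trp63* against the distance from the long start in kb (x axis), with 1 panel per clone. The grey band is the gene and dotted lines are the long starts at 0 kb and the short start at 118 kb; no line stands on either start, and the tallest line of clone 3, 137 reads, lies downstream of the short start.

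*Sox2* (ENSMUSG00000074637.7, chr3:34650405-34652461, plus strand) had no peak in its promoter, its single exon or the 100 kb on either side in any clone. The nearest peak lay 243 kb downstream in clone 1 and 242 kb downstream in clones 2 and 3, with 24, 54 and 42 reads. An empty window of this kind was found at 19.5%, 16.2% and 18.5% of all genes. The gene lies in a wide stretch without listed acetylation, and all 3 clones were alike in this.

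The other grainyhead genes and the OVOL gene lacked the mark at promoter and body alike. To lack a body peak was usual, since only 15.1%, 27.2% and 16.5% of all genes had one in clones 1, 2 and 3. *Grhl2* (ENSMUSG00000022286.16, chr15:37233036-37363569, plus strand), which keeps epithelial junctions, had no peak within its 131 kb and 1, 3 and 1 distal peaks in clones 1, 2 and 3. The strongest of them, 97.1 kb upstream in clone 2 with 86 reads, was met by a peak of 31 reads in clone 3. The local control background on chromosome 15 was 1.35, 1.35 and 1.43 times that of the other autosomes in these lists. The paper reports that its cell lines had gained the FVB/N copy of this chromosome. The part of the gain in these ratios, and of the background in the absence of peaks at *Grhl2*, was not tested. *Krt5*, *Krt1* and *Sox10*, without a promoter peak in any clone, and *Klf10*, with one in every clone, lie on the same chromosome. *Grhl3* (ENSMUSG00000037188.7, chr4:135541888-135573630, minus strand), a factor of barrier formation and wound closure, had 2 distal peaks in clone 1, at 49.0 and 49.8 kb upstream with 36 and 16 reads, and 2 in clone 2, both at the starts of *Nipal3* and *Stpg1*. Clone 3 had none, and no region near *Grhl3* was shared between clones.

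*Ovol1* (ENSMUSG00000024922.2, chr19:5549136-5560646, minus strand) lies among many active genes and was itself unmarked. It had no promoter or body peak in any clone but 15, 28 and 11 distal peaks, of which 12, 17 and 10 lay within 1 kb of the start of another gene. The nearest peak, 6.31, 5.996 and 6.60 kb upstream of its start, was that of *Ap5b1*, with 105, 302 and 78 reads. Among the peaks away from other starts, a region 12.01, 11.7 and 12.1 kb upstream of the gene, chr19:5572326-5573475, was listed in all clones with 23, 97 and 51 reads. *Rela*, which codes for an NF-κB subunit, and *Fosl1*, which codes for an AP-1 subunit, were among the marked neighbours in all clones, with 219, 368 and 155 reads and with 131, 262 and 94 reads. By bases under peaks *Ovol1* stood at percentiles 92.0, 94.8 and 87.8 of all genes, a count to which its neighbours' promoter peaks belong.

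*Tfap2c* (ENSMUSG00000028640.11, chr2:172549593-172558622, plus strand) had neither promoter nor body peaks in any clone, in contrast to its paralogue *Tfap2a*. It had 2, 12 and 4 distal peaks, of which 0, 1 and 0 lay at the start of another gene. A strong region 85.5, 84.8 and 85.5 kb downstream of the gene was present in all clones, with 120, 157 and 143 reads and a fold enrichment of 17.3, 28.2 and 17.8. Within the list of clone 3 its fold enrichment exceeded that of 98.5% of all peaks, within clone 1 78.8% and within clone 2 83.2%. It is the only region of *Tfap2c* shared by all clones, and 7 of its 10 regions were listed in clone 2 alone. The 300 bases around the summit of clone 2, chr2:172644359-172644658 on the plus strand, are shown as the strongest distal site away from other starts near any of the 10 genes, and hold none of the 7 motifs.
Tfap2c downstream region: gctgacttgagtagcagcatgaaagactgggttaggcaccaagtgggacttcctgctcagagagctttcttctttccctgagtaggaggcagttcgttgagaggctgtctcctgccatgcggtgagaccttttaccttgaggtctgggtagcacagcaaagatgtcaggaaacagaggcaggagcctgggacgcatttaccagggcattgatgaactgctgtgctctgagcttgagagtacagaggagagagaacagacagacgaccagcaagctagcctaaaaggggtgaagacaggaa

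Neighbouring peaks no more than 12.5 kb apart were stitched into domains, and the rank of a domain follows the number of its bases that lie under peaks. A domain of 3 or more peaks overlapped 3 of the 10 genes in each clone, against 16.1%, 27.6% and 14.3% of all genes. *Trp63* and *Tfap2a* were in such a domain in every clone, *Klf4* in clones 1 and 3 and *Klf5* in clone 2. The highest rank was reached by *Tfap2a* in clones 1 and 2, with a domain of 15.1 kb at rank 234 of 14560 and one of 18.8 kb at rank 535 of 18280. In clone 3 it was reached by *Klf4*, with a domain of 12.1 kb at rank 351 of 16371. The *Klf4* domain of clone 1 ranked 568, and in clone 2, where the upstream pair was not listed, the gene kept a domain of 1 peak at rank 1791. *Klf5* ranked 1668, 2356 and 1498 and *Tfap2a* in clone 3 ranked 644. The *Trp63* body was broken into 3, 3 and 4 domains, of which the highest ranked 1889 and 1947 in clones 1 and 2 and 818 in clone 3, where 5 peaks between the long and short starts were joined over 22.2 kb. None of these domains reached into another protein-coding gene. *Grhl1* had only domains of 1 peak, at rank 11079 of 14560 in clone 1 and at ranks 11061 and 15252 of 18280 in clone 2. In clone 3 it had none. *Sox2*, *Grhl2*, *Grhl3*, *Ovol1* and *Tfap2c* were overlapped by no domain in any clone. The share of all genes without any domain was not taken.

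Over all 10 genes there were 9, 18 and 10 body peaks in clones 1, 2 and 3, or 12.3 ± 4.93 (SD, n = 3), and 32, 58 and 37 distal peaks, or 42.3 ± 13.8. The mean over all protein-coding genes was 0.484, 1.12 and 0.459 body peaks and 4.63, 8.44 and 4.25 distal peaks per gene. At least 1 body peak was listed at 3, 4 and 1 of the 10 genes, against 15.1%, 27.2% and 16.5% of all genes. Of the body peaks of the 10 genes, 6, 10 and 10 lay in *Trp63*, a gene of 208 kb. Of the distal peaks 16, 25 and 13 lay at the start of another gene. Merged over the clones the promoter peaks formed 7 regions, of which 5 were listed in all clones, the body peaks 21 regions, of which 3 were, and the distal peaks 73 regions, of which 15 were. The 3 shared body regions are all in *Trp63*. Regions of a single clone came mostly from clone 2, whose list is the longest: 32 of the 42 single-clone distal regions and 7 of the 12 single-clone body regions. Such shares of regions were not taken over all genes, here or for the single genes above. Whether they are particular to the 10 genes was therefore not tested. With the 29182 peaks of lowest q value in each list, clone 2 had 38 distal and 9 body peaks in place of 58 and 18, against 32 and 9 in clone 1 and 37 and 10 in clone 3. The median of the 10 genes by bases under peaks lay at percentile 55.8, 50.2 and 56.4 of all genes, or 54.1 ± 3.39 (SD, n = 3), with *Ovol1* among the highest and *Sox2* lowest or level with the lowest.

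**Figure D4:**
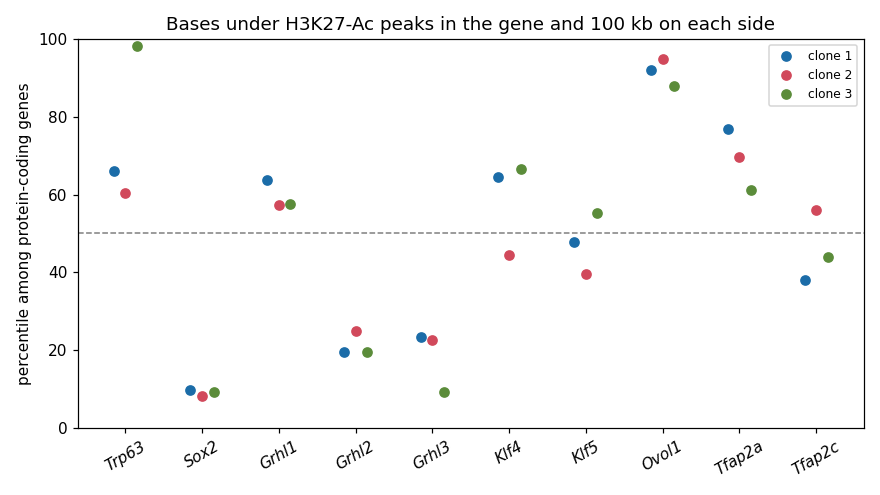
Percentile among 21938 protein-coding genes (y axis) of the bases under H3K27-Ac peaks in the gene and the 100 kb on each side, for the 10 genes (x axis) with 1 point per clone; the dashed line is the median gene. The points of *Trp63* lie at 66.0, 60.5 and 98.2, those of *Ovol1* between 87.8 and 94.8, and those of *Sox2* between 8.12 and 9.75. Genes with equal bases share the middle of their ranks. *Sox2* had no bases under peaks and no gene lay below it, so its points are the middle of the genes without any.

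Paralogues of the 10 factors were read in the same way. Of 11 such genes, 6, 7 and 6 had a promoter peak in clones 1, 2 and 3, and 6 had one in all clones: the KLF genes *Klf6*, *Klf10* and *Klf3*, the p53 gene *Trp53*, and *Sox9* and *Sox21*. *Klf6* had the highest mean fold enrichment of them, with 34.1, 78.6 and 23.0 in clones 1, 2 and 3, although *Klf3* exceeded it in clone 1 with 41.4. *Sox9*, a factor of hair follicle stem cells, had 136, 210 and 73 reads at its strongest promoter peak, where *Sox2* had no peak. *Sox15* had a weak peak of 21 reads in clone 2 only, and *Ovol2*, *Tfap2b*, *Tfap2e* and *Trp73* had none in any clone. The 5 KLF genes of both lists, *Klf4* and *Klf5* included, were thus marked in all clones, the OVOL pair was unmarked, and *Tfap2a* was the only AP-2 gene of the 4 with a promoter peak. Among all genes 49.8%, 56.9% and 48.1% had a promoter peak in clones 1, 2 and 3, 46.5% in all clones and 42.6% in none. The share of the paralogues marked in all clones, 54.5%, lay near that of all genes, and no test of this was made.

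Of 30 epidermal genes that are targets or partners of these factors, 9, 12 and 8 had a promoter peak in clones 1, 2 and 3, 7 had one in all clones and 17 in none. Those with the highest mean fold enrichment among those marked in all clones were *Fgfr2*, a receptor for fibroblast growth factors (27.2, 54.1 and 8.66), the Notch ligand *Jag2* (15.96, 31.3 and 5.50), the keratin *Krt10* (9.44, 35.3 and 6.60), the p63 target *Perp* (7.91, 33.3 and 7.33), the integrin *Itga6* (13.4, 21.7 and 7.45) and the P-cadherin gene *Cdh3* (9.60, 19.3 and 4.71). The epithelial cadherin *Cdh1*, the claudins *Cldn4* and *Cldn7* and the desmosomal genes *Dsc3*, *Dsg3* and *Dsp* had no promoter peak in any clone. A peak in all clones was thus found at 23.3% of these epidermal genes, against 46.5% of all genes and 54.5% of the paralogues. These shares are descriptions, with no test. The 30 genes include all 12 keratinocyte markers above, so that their share is in part the same result as that of the markers.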

How the data were processed

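The members and the gene lists were chosen with earlier results of these data known. Single-end ChIP-seq reads of H3K27-Ac and IgG libraries were processed by the authors into 1 peak list per clone, the 2 libraries of clone 3 merged; the submitters' processing notes name Bowtie2, MACS2 2.1.1 and GRCm38. The deposited lists give peak positions, a fold enrichment, which is the ratio of pileup to local background at the summit with 1 added to each, and the −log10 of the p and q values. Peak names of clones 1 and 2 carry the word WASPchecked, after a filter on reads whose mapping depends on the allele, and those of clone 3 the word merged. The labels' protocol names antibodies against CTCF and SMC1 beside IgG, and the samples' own labels name H3K27ac and IgG.

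With Python 3.11.15, numpy 2.4.6 and scipy 1.17.1, the peaks of the autosomes, X and Y were placed against the starts and bodies of GENCODE M21 genes, which is on GRCm38; none of them ran past a chromosome end of the GRCm38.p6 sequence. A promoter peak overlaps 1 kb on either side of any transcript start, a body peak overlaps the gene otherwise, and a distal peak lies within 100 kb. Domains join peaks no more than 12.5 kb apart. Long starts of *Trp63* are those within 50 kb of the outermost start, and the short start lies beyond. Reads at a summit are the whole number that returns both fold and p, to within 0.0005 on the −log10 p scale; 89, 40 and 281 peaks allowed a second number. The steps were tested on simulated data. Promoter sequences are those of RefSeq on GRCm38.p6, and peak sequences were read from that genome. Genes named from the lists are those marked in all clones with the highest mean fold enrichment and those marked in none, in alphabetical order, up to 6 of each; markers named in the check of cell identity, and neighbours of *Grhl1*, *Grhl3* and *Ovol1* were named after their values were seen. There is 1 condition and 1 list per clone, so no test between groups was made, and the spread is the SD over 3 clones. Alternatives were other windows, summits, transcript sets, joining distances and peak thresholds, and leaving out each clone.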

Additional observations from a re-analysis of the deposited data

How the results depend on the processing

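The promoter result depended little on the processing: *Klf4*, *Klf5* and *Tfap2a* had a promoter peak in all clones in 6 of the 7 settings, and with the summit required inside the window *Klf4* was lost in clone 1, which left 2 genes. The mean number of promoter genes ranged from 3 to 3.67 over the settings. A window of 2.5 kb gave 1 clone a peak at the short start of *Trp63*, and none at the long start. A −log10 q of at least 5 lowered body peaks to 6 ± 3.46 per clone. Distal peaks numbered 13.3 within 50 kb, 104 within 200 kb, and 24.3 without peaks at the starts of other genes. The median percentile was 46.5 within 200 kb and 43.3 by the number of peaks. Without each clone in turn the means ranged from 3 to 3.5 promoter genes, 9.5 to 14 body peaks, 34.5 to 47.5 distal peaks and percentile 52.99 to 56.1. The counts of 3 genes marked in all clones and 3 in domains could not move. *Grhl1*, the only other marked gene, was marked in 1 clone, and each clone had 3 genes in domains. Joining over 5 kb, or a −log10 q of at least 5, gave 2.33 genes in domains. With 29182 peaks in each clone, body peaks were 9, 9 and 10 and distal peaks 32, 38 and 37. The number of clones and the threshold of each list limit the precision. No paired analysis was possible because there is 1 condition.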
